A study of Homo sapiens with 8 samples.

Results

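The mRNA levels of 59 genes that work in mitosis were followed across 4 treatments of an acute myeloid leukemia (AML) cell line. The genes encode kinetochore proteins, the spindle checkpoint, mitotic kinases, anaphase regulators, mitotic kinesins, spindle and cytokinesis proteins, and proteins that compact the chromosomes. They were taken by symbol from the first column of a table of 26364 genes, and all 59 were found. All 59 were also among the 14151 genes that reached 1 TPM (a read count scaled to gene length and library size) in 2 or more libraries, the genes that were tested. The list was written as a list of mitotic functions, and its rule uses no measured value. It was chosen, however, with earlier results of these data known.

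RNA-seq had been done on MV4-11 cells, an established human AML line that carries FLT3-ITD and MLL-AF4, so that both alterations were present in every group. There were 4 groups of 2 libraries each, all at day 4: control cells given DMSO, cells given tranylcypromine (TCP, an inhibitor of the histone demethylase LSD1) at 5 µM, cells given palbociclib (a CDK4/6 inhibitor) at 0.5 µM, and cells given the combination at these same doses. The labels give 4 days of treatment, whereas the study's methods describe 1 day on the CDK6 inhibitor by itself, followed by 3 days on both. Whether TCP alone lasted 3 or 4 days cannot be told from these sources. All libraries come from 1 cell line, and nothing in the labels says that the libraries of a group come from separate cultures, so the p-values measure the spread between these libraries, which may be technical.

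Mitosis separates the replicated chromosomes. Microtubules of the spindle attach to kinetochores, protein assemblies built on centromeric chromatin, and the spindle checkpoint delays anaphase until every kinetochore is attached; the anaphase-promoting complex then releases the sister chromatids, and cytokinesis divides the cell. Most of these genes are transcribed late in the cell cycle, under the control of the DREAM, B-MYB and FOXM1 complexes. Their mRNA is abundant in cells in G2 and M phase and scarce in cells arrested in G1. CDK4 and CDK6 phosphorylate the retinoblastoma protein in G1, and palbociclib blocks that step. In bulk RNA, fewer cells in G2 and M phase and less of the mRNA per cell cannot be told apart.

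Promoter sequences of the genes were searched for the letters of 3 elements known from cell cycle promoters. These were TTTGAA, a cell cycle genes homology region (CHR), CCAAT, the CCAAT box, and GCGGGAA, an E2F site, each on either strand. None of the 3 is contained in another, and a match is a description of the sequence and not a binding site. RefSeq promoter entries of 300 bases (250 before the transcript start and 50 from it on, build GRCh38.p14) were found for 50 of the 59 genes, with 57 entries in all. No entry was found for BUB3, BIRC5, AURKA, CENPM, KNTC1, UBE2C, CENPH, TPX2 and TTK. The CHR letters were in 40 of the 57 promoters (70.2%), compared with 10.7% of the 13815 promoters of the genes tested and 15.2% of all 35116 promoters. The CCAAT letters were in 38 of 57 (66.7%), compared with 34.6% of the promoters of tested genes and 34.6% of all promoters. The E2F letters were in 6 of 57 (10.5%), compared with 9.47% and 6.55%.

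Promoters of 5 genes are printed, 5′ to 3′ on the strand of the gene, with the matches in capitals. CENPA, PLK1 and CDC20 show CHR letters near the start and CCAAT letters upstream of them in genes that fell, AURKB fell as far and holds no CHR letters in this window, and CENPO carried CHR letters and changed least. They lie at chr2:26785806-26786105 (CENPA, plus strand), chr16:23678639-23678938 (PLK1, plus strand), chr1:43358731-43359030 (CDC20, plus strand), chr17:8210176-8210475 (AURKB, minus strand) and chr2:24793175-24793474 (CENPO, plus strand) of GRCh38.p14.
CENPA: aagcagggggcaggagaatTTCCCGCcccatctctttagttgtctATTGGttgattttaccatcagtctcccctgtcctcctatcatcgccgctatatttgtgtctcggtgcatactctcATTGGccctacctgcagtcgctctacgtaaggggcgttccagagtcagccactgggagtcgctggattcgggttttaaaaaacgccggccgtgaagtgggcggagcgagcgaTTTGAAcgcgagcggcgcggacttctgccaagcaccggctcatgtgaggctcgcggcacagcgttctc
PLK1: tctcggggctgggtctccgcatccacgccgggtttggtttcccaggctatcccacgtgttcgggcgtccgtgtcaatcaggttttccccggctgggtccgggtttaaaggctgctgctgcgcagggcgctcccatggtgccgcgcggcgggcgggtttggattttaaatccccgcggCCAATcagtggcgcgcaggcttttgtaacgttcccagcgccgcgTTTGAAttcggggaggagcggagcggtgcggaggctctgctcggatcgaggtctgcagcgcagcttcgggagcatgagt
CDC20: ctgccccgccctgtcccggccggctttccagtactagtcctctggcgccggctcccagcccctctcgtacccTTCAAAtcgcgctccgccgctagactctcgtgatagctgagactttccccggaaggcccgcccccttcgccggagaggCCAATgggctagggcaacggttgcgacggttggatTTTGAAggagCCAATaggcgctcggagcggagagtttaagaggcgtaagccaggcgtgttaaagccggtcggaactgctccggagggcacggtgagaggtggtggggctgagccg
AURKB: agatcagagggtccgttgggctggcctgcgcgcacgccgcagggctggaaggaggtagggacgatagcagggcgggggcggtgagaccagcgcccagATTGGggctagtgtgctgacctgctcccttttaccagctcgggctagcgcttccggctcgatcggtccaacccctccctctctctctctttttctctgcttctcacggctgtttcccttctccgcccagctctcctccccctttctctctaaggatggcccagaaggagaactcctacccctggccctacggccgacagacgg
CENPO: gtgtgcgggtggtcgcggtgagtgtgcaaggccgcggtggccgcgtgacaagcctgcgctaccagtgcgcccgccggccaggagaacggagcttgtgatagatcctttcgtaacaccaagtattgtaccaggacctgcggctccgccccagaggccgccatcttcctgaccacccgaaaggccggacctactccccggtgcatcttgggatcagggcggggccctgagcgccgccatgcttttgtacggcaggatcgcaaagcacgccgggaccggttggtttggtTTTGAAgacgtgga
Positions are of the leftmost base, with the start site at 0. The CHR letters of CENPA began at -18, those of PLK1 at -29 and those of CDC20 at -65, with CCAAT letters further upstream at -130 and -205 on the minus strand in CENPA, at -73 in PLK1 and at -100 in CDC20, which also had CCAAT letters at -55 and CHR letters on the minus strand at -178. CENPA alone of the 5 had E2F letters, at -231 on the minus strand. AURKB had 1 match in the printed window, CCAAT letters on the minus strand at -153. Where a gene has several promoter entries the first is printed, and another entry of AURKB had CCAAT letters on the minus strand at -129. In CENPO the CHR letters lay inside the transcribed part, at 36.

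The CHR matches of the mitotic genes lay close to the start. Between -50 and -1 there were 40.4 CHR matches per 100 promoters, and 1.64 in the other tested genes. From 0 to 49 there were 24.6 and 1.44. The CCAAT matches lay one window further upstream, with 63.2 per 100 promoters between -100 and -51, and 16.9 in the other tested genes. Of the 50 genes with an entry, 28 had both CHR and CCAAT letters and 3 had none of the 3 elements.

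The 59 genes together fell with palbociclib and lay lower again with the combination, while TCP alone left them near control. Their summed level was 4274 and 4812 TPM in the control libraries, 4079 and 4480 with TCP, 2152 and 2044 with palbociclib, and 1521 and 1572 with the combination. The control and TCP libraries overlapped, both palbociclib libraries lay under all of these, and both combination libraries lay under both palbociclib libraries. As a share of all TPM, the genes went from 0.427% and 0.481% in control to 0.152% and 0.157% with the combination. Replicates had a correlation of 0.983 to 0.991 over genes, and the 10 most abundant genes took 9.12 to 9.67% of the TPM in the control and TCP libraries and 14 to 15.8% with palbociclib or the combination, which lowers all other TPM values there. Over all genes tested the median log2 fold change was -0.16 with palbociclib and -0.22 with the combination, and the changes of the mitotic genes are to be read against these medians.

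**Figure D1:**
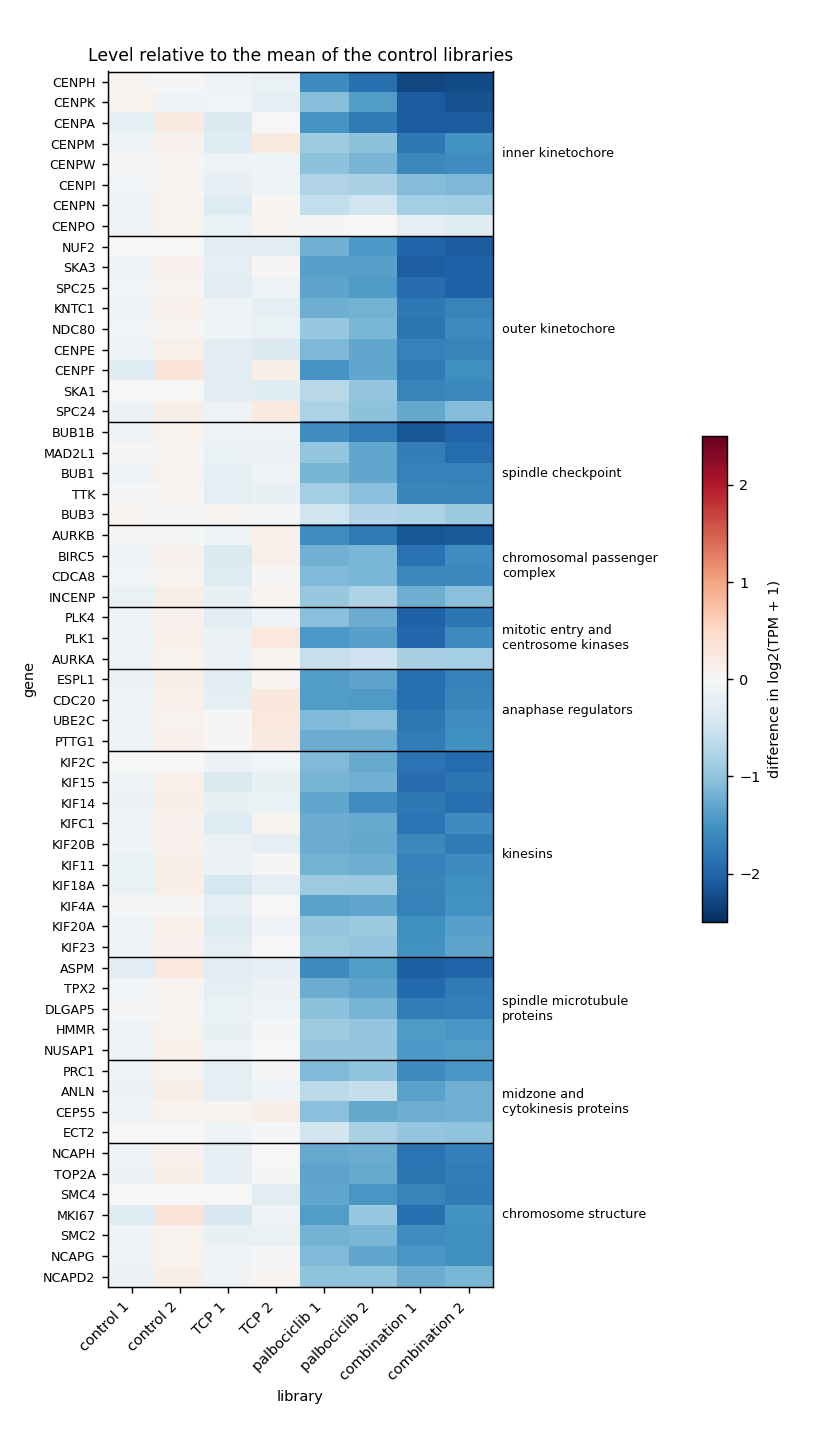
Level of each of the 59 genes (rows, by role) in each of the 8 libraries (columns), as the difference in log2(TPM + 1) from the mean of the 2 control libraries. TCP libraries are close to 0, palbociclib libraries lower, and combination libraries lowest for nearly all genes; CENPO stays near 0 with palbociclib and CEP55 is alike with palbociclib and the combination.

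Some stromal transcripts were present, most in 1 palbociclib library and to a smaller extent in both combination libraries. The study grew its cell lines on HS-5 stromal cells, although the labels of these libraries mention no coculture. The 8 AML markers PTPRC, CD33, FLT3, SPI1, HOXA9, MEIS1, MPO and CSF3R were measured in every group, with summed levels of 822 to 882 TPM in control and TCP and 1120 to 1230 TPM with palbociclib or the combination. Single AML markers moved both ways. With the combination 3 of the 8 were below control, and the log2 fold changes of the 8 ran from -1.71 to 2.25. The 15 stromal markers summed to 24.7 to 30.8 TPM in control, 35.1 to 37.8 with TCP, 32.1 and 157 with palbociclib, and 45.1 to 58.2 with the combination. Palbociclib replicate 2 stood apart, with FN1 at 23.4, COL1A1 at 22.2 and COL3A1 at 17.5 TPM. In the combination libraries FN1 was at 4.84 and 7.04 TPM and COL1A1 at 2.29 and 3.78, compared with 1.22 and 3.14 and with 0.185 and 1.23 in control, and the part of this difference in the changes of the mitotic genes with the combination was not tested. POSTN was at 0 in every library, and 9 of the 15 genes were below 1 TPM in both control libraries and 4 in both palbociclib libraries. Of the 8 lymphoid and erythroid markers, 5 or 6 were at 0 in both libraries of each group, and the 8 summed to 2.4 to 5.5 TPM. Without palbociclib replicate 2, the median change of the mitotic genes with palbociclib was -1.11, compared with -1.18 with it.

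Palbociclib against control asks what CDK4/6 inhibition does to these transcripts. A gene was called a DEG where its log2 fold change was 1 or more in size and its limma adjusted p was below 0.01. Fold changes were taken from log2(TPM + 1), so those of low genes come out too small. With palbociclib 42 of the 59 genes were called lower and none higher, while 4.56% of all genes tested were called lower. The median log2 fold change of the 59 genes was -1.18, with a range from -1.73 (CENPH) to -0.02 (CENPO), and the median gene kept 43.2% of its control mean TPM, compared with 88.4% over all genes tested. Both palbociclib libraries lay below both control libraries for 58 of the 59 genes (49.7% of all genes), the exception being CENPO. The 17 genes that were not called were ANLN, AURKA, BUB3, CENPI, CENPM, CENPN, CENPO, ECT2, HMMR, INCENP, KIF18A, KIF20A, KIF23, NUSAP1, SKA1, SPC24 and TTK. At any fold, 57 of the 59 had an adjusted p below 0.01 by limma, so 15 of these 17 missed the call through the size alone. Without a replicate block, CENPN (-0.55, limma adjusted p = 0.015) and CENPO (-0.02, limma adjusted p = 0.90) missed it through both the size and the p. With the replicate number as a block, CENPN (limma adjusted p = 0.0055) missed the call through the size alone. The count depended on the library and the scaling: it was 34 without palbociclib replicate 2, 33 without control replicate 2, 49 without control replicate 1, and 31 when libraries were scaled by median ratios.

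The combination against control gave the widest fall. With both molecules 54 of the 59 genes were called lower and none higher, while 7.82% of all genes tested were called lower. The median log2 fold change was -1.68, from -2.26 (CENPH) to -0.28 (CENPO), and the median gene kept 29.8% of its control mean TPM, compared with 84.3% over all genes. Both combination libraries were below both control libraries for all 59 genes, as they were for 54.2% of all genes. The 5 genes that were not called were AURKA (-0.84), BUB3 (-0.87), CENPN (-0.86), CENPO (-0.28) and ECT2 (-0.99), and the first 3 and ECT2 had an adjusted p below 0.01 by limma at a smaller fold. Against TCP, the combination had 53 genes called lower (6.7% of all genes), with a median of -1.56, and CENPI was the additional gene not called.

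TCP alone changed none of the 59 genes by the call, as it lowered 0.0% of all genes tested. Their median log2 fold change was -0.12, with 51 of the 59 below 0, and that of all genes was -0.04, with 8692 of 14151 below 0. The count rested on single libraries: it was 38 without control replicate 2 (median -0.03), 37 without TCP replicate 1 (median -0.05), 54 without control replicate 1 and 55 without TCP replicate 2. At an unadjusted p below 0.05, 4 genes were lower with TCP by limma, CENPE (-0.31), KIF18A (-0.34), NUF2 (-0.29) and SKA1 (-0.29), compared with 5.09% of all genes. None of the 59 had an adjusted p below 0.05 at any fold, with or without the replicate number as a block (0.544% of all genes with the block). Both TCP libraries lay below both control libraries for 20 of the 59 genes and for 22.3% of all genes. The replicates differed for these genes. In control 53 of the 59 were higher in replicate 2 than in replicate 1, compared with 49.8% of all genes. With TCP 49 were higher in replicate 2, compared with 42.3%. With palbociclib the count was 19 (43.2% of all genes), and with the combination 41 (46.9%).

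**Figure D2:**
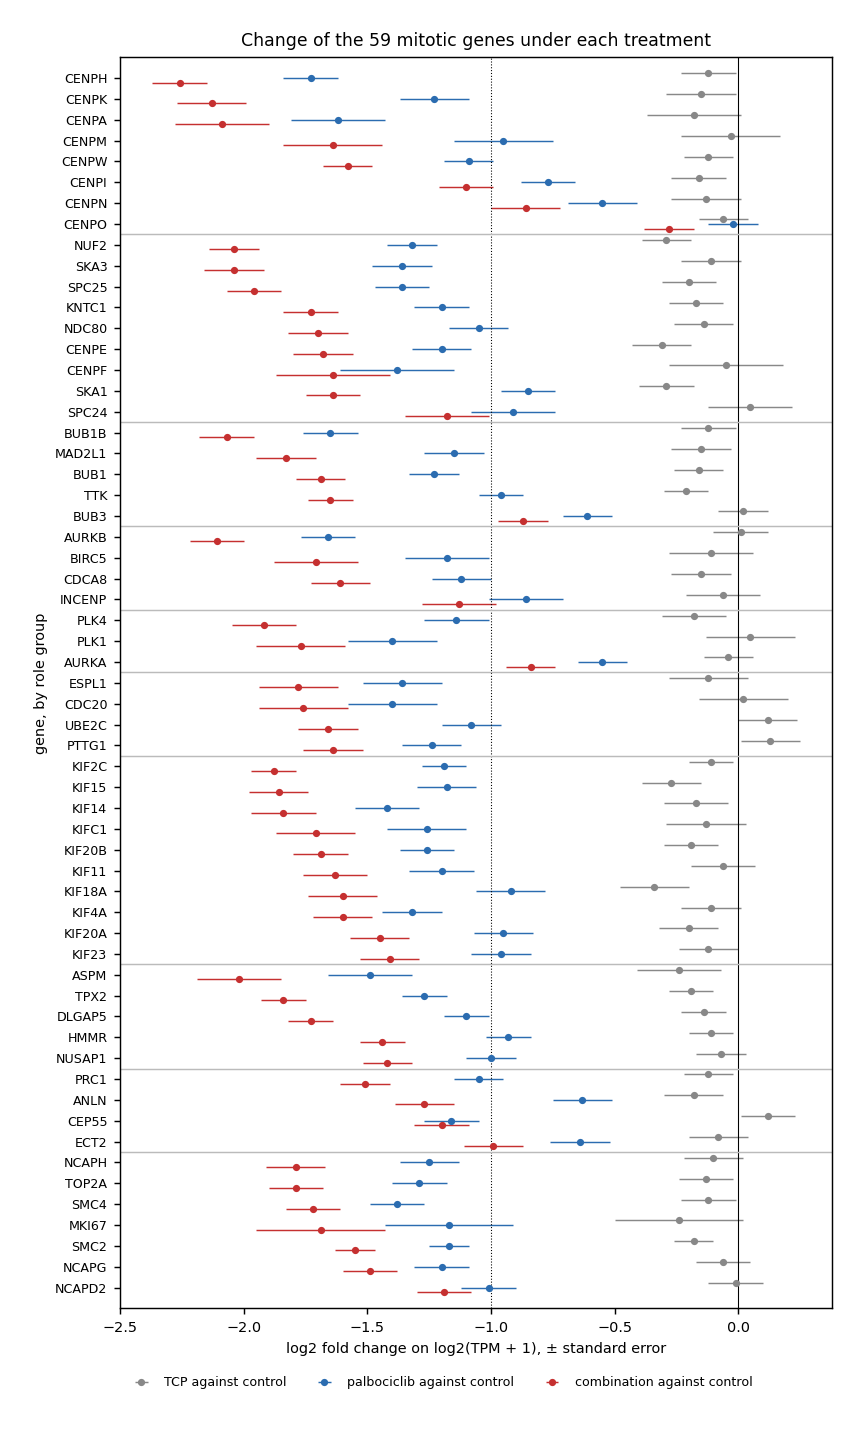
Log2 fold change on the log2(TPM + 1) scale with its limma standard error for each of the 59 genes, by role, with TCP (grey), palbociclib (blue) and the combination (red), each against control (2 libraries per group). The dotted line marks a log2 fold change of -1. The grey points sit between -0.34 and 0.13, the blue ones between -1.73 and -0.02, and the red ones between -2.26 and -0.28.

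The combination against palbociclib asks what TCP adds when CDK4/6 is inhibited. None of the 59 genes reached the call, as only 0.0424% of all genes were called lower; no difference reached a log2 fold change of -1, and no adjusted p was below 0.01 without the replicate block. With the block 4 of the 59 genes had an adjusted p below 0.01 by limma (0.481% of all genes), CENPK, KIF2C, ANLN and NUF2, at folds that fell short of the call. The point estimates lay on 1 side: all 59 were below 0, with a median of -0.47 (-0.07 over all genes) and a range from -0.91 (CENPK) to -0.04 (CEP55). Both combination libraries lay below both palbociclib libraries for 58 of the 59 genes (37.2% of all genes), the exception being CEP55. The median gene kept 70.8% of its palbociclib mean TPM, from 50.4% (CENPK) to 96.6% (CEP55). At an unadjusted p below 0.05 by limma 50 of the 59 were lower (11.3% of all genes), and at an adjusted p below 0.05 at any fold 17 were lower (1.44% of all genes). These 17 were ANLN, CENPK, DLGAP5, HMMR, KIF15, KIF18A, KIF2C, KNTC1, MAD2L1, NDC80, NUF2, PLK4, SKA1, SKA3, SPC25, TPX2 and TTK. With the replicate number as a block the count was 37 (5.08% of all genes), and without palbociclib replicate 2 it was 6 (0.17% of all genes).

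The interaction of TCP and palbociclib compares the combination with the sum of the single effects on the log2 scale. None of the 59 genes was called, and 0.0% of all genes were. All 59 estimates were below 0, from -0.75 (CENPK) to -0.17, with a median of -0.35 (-0.03 over all genes). At an unadjusted p below 0.05 by limma 25 of the 59 were below 0, compared with 3.53% of all genes, and with the replicate block 35 of the 59, compared with 6.46%. The smallest adjusted p of the 59 was 0.342, or 0.138 with the replicate block. The median was -0.24 without control replicate 1, with 57 of the 59 below 0, and -0.46 without control replicate 2. The treatments share the control libraries, so the values of the comparisons are not independent of each other.

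**Figure D3:**
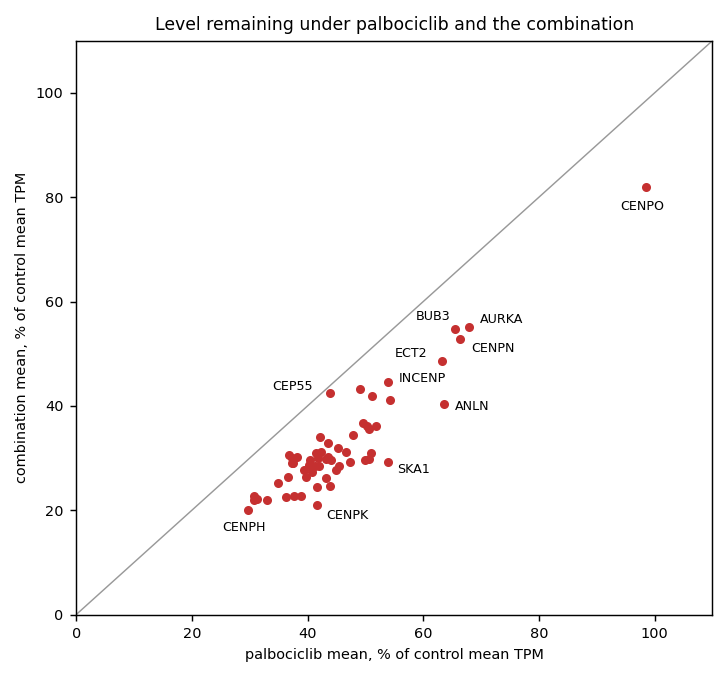
Mean TPM left with palbociclib (horizontal axis) and with the combination (vertical axis), each as a percent of the control mean, for the 59 genes (points, means of 2 libraries). The line marks equal values; every point lies under it, CEP55 nearest (43.9% and 42.4%) and CENPO far to the right (98.5% and 82.0%).

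In the inner kinetochore, whose proteins sit on the centromeric chromatin, 4 of 8 genes were called lower with palbociclib and 6 of 8 with the combination, with medians of -1.02 and -1.61. CENPH, a subunit of the constitutive centromere-associated network, gave 99.5 and 92.5 TPM in control, 90.5 and 85.4 with TCP, 31.6 and 25.4 with palbociclib and 19.0 and 19.6 with the combination. It changed by -1.73 with palbociclib and -2.26 ± 0.11 (SE) with the combination (limma adjusted p = 2.8e-05), the deepest change of the 59, and its palbociclib and combination libraries did not overlap. On GRCh37, the build of the authors' alignment, CENPH spans chromosome 5 from 68485401 to 68506184 on the plus strand, in 9 exons once those of its transcripts are merged. CENPK, its partner in the same subcomplex, gave 46.6 and 40.6 TPM in control, 41.2 and 36.9 with TCP, 20.4 and 15.9 with palbociclib and 9.49 and 8.81 with the combination. The combination was lower than palbociclib alone by -0.91 ± 0.14 (SE, adjusted p = 0.021 by limma), and both combination libraries were lower than either palbociclib library.

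CENPA, the histone H3 variant that marks the centromere, had 58.4 and 80.8 TPM in control, 53.6 and 68.7 with TCP, 24.0 and 19.5 with palbociclib and 15.5 and 15.4 with the combination. Its control libraries were wide apart, and every palbociclib and combination library lay under every control and TCP library. CENPN, which binds the CENPA nucleosome, went from 19.3 and 21.8 TPM in control and 16.3 and 21.2 with TCP to 13.1 and 14.2 with palbociclib and 10.9 and 10.8 with the combination, a log2 fold change of -0.86 ± 0.14 (SE, adjusted p = 0.0020) with the combination. CENPO, another subunit of the network, behaved unlike the rest, with 42.9 and 48.2 TPM in control, 40.2 and 47.5 with TCP, 44.2 and 45.6 with palbociclib and 38.0 and 36.8 with the combination. Its palbociclib libraries fell within the control range, and its combination libraries lay under all others. The log2 fold change of the combination against control was -0.28 ± 0.10 (SE), which did not pass. The adjusted p by limma was 0.059, or 0.028 with the replicate number as a block. In the gene annotation, 27.0% of the exonic bases of CENPO overlap exons of ADCY3 on the opposite strand; the strand setting of the counting is not stated, and the part of ADCY3 reads in this value was not tested. The other members were CENPW (-1.58 with the combination), CENPM (-1.64) and CENPI (-1.10).

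The outer kinetochore binds microtubules, mainly through the NDC80 complex of NDC80, NUF2, SPC24 and SPC25. All 9 of its genes were called lower with the combination (median -1.70) and 7 with palbociclib (median -1.20). The 4 subunits kept 36.3 to 51.2% of their control level with palbociclib and 22.5 to 41.8% with the combination, with SPC24 at the upper end. CENPF, a large kinetochore protein that is made in G2, gave 67.6 and 106 TPM in control, 70.7 and 93.9 with TCP, 29.7 and 33.9 with palbociclib and 24.1 and 28.8 with the combination, with the wide control spread seen for CENPA and MKI67. SKA3, part of a complex that helps kinetochores hold on to depolymerising microtubules, gave 47.1 and 54.2 TPM in control, 42.6 and 51.5 with TCP, 19.1 and 19.0 with palbociclib and 11.4 and 11.7 with the combination. Its replicates were tight, and the combination was lower than palbociclib by -0.67 ± 0.12 (SE, adjusted p = 0.031 by limma). SKA1 of the same complex missed the call with palbociclib (-0.85) and was called with the combination (-1.64), CENPE, a kinetochore motor, changed by -1.20 and -1.68, and KNTC1, which recruits checkpoint proteins and dynein, by -1.20 and -1.73.

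Of the 5 spindle checkpoint genes, 3 were called lower with palbociclib and 4 with the combination, with medians of -1.15 and -1.69. BUB3, the adaptor that brings the BUB proteins to the kinetochore, had the highest level of the 59 genes and one of the smallest changes: it gave 480 and 444 TPM in control, 486 and 453 with TCP, 328 and 277 with palbociclib and 265 and 241 with the combination. Both libraries of palbociclib and of the combination lay under both of control, yet its log2 fold change with the combination was -0.87 ± 0.10 (SE, adjusted p = 0.00055 by limma), short of the fold threshold. MAD2L1, the checkpoint protein that holds CDC20, gave 172 and 183 TPM in control, 159 and 161 with TCP, 88.5 and 71.1 with palbociclib and 52.7 and 46.0 with the combination. BUB1B, which encodes the checkpoint protein BUBR1, gave 64.2 and 73.2 TPM in control, 63.0 and 63.3 with TCP, 22.6 and 19.7 with palbociclib and 14.9 and 16.3 with the combination, a change of -2.07 ± 0.11 (SE). TTK, the kinase that starts checkpoint signalling, gave 63.1 and 68.3 TPM in control, 55.2 and 58.0 with TCP, 35.8 and 31.1 with palbociclib and 20.4 and 20.1 with the combination. TTK was short of the fold threshold with palbociclib (-0.96) and passed with the combination (-1.65), and between them the difference was -0.69 ± 0.09 (SE, adjusted p = 0.015 by limma). The kinase BUB1 changed by -1.23 and -1.69.

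The chromosomal passenger complex corrects faulty attachments and acts again in cytokinesis. All 4 of its genes were called lower with the combination (median -1.66) and 3 with palbociclib (median -1.15). AURKB, its kinase, gave 69.7 and 66.5 TPM in control, 63.2 and 74.0 with TCP, 22.4 and 19.3 with palbociclib and 14.9 and 15.1 with the combination, a change of -1.66 and -2.11 ± 0.11 (SE). BIRC5 (survivin) gave 116 and 136 TPM in control, 98.0 and 137 with TCP, 53.7 and 56.0 with palbociclib and 33.9 and 42.0 with the combination. CDCA8 (borealin) gave 75.2 and 83.2 TPM in control, 62.8 and 80.3 with TCP, 36.1 and 35.5 with palbociclib and 25.2 and 25.3 with the combination. In all of these the TCP libraries straddled or overlapped the control range, and the order of palbociclib above combination held without overlap. INCENP, the scaffold of the complex, changed less, by -0.86 and -1.13, and kept 53.9% and 44.6% of its control level, where AURKB kept 30.7% and 22%.

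Among the kinases of mitotic entry and centrosomes, PLK1 and PLK4 were called lower with both treatments and AURKA with neither. PLK1, which acts from mitotic entry to cytokinesis, gave 123 and 146 TPM in control, 121 and 161 with TCP, 48.8 and 51.9 with palbociclib and 33.8 and 44.5 with the combination, a change of -1.77 ± 0.18 (SE) with the combination. AURKA, the centrosomal Aurora kinase, gave 70.8 and 80.1 TPM in control, 68.2 and 79.1 with TCP, 50 and 52.5 with palbociclib and 41.8 and 41.5 with the combination. Its palbociclib and combination libraries did not overlap those of control, and it kept 67.9% and 55.2% of its control level. PLK4, which starts centriole duplication, changed by -1.14 with palbociclib and -1.92 with the combination, and the combination kept 55.9% of the palbociclib level, a share that was lower in CENPK and SKA1 alone.

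The anaphase regulators fell evenly, with all 4 called lower by both treatments and medians of -1.30 and -1.71. CDC20, the activator of the anaphase-promoting complex, gave 139 and 168 TPM in control, 129 and 185 with TCP, 57.7 and 56.9 with palbociclib and 40.7 and 48.5 with the combination. UBE2C, the ubiquitin-conjugating enzyme of that complex, gave 115 and 129 TPM in control, 120 and 146 with TCP, 56.5 and 57.4 with palbociclib and 34.6 and 41.1 with the combination. Both had their highest value in TCP replicate 2, and both were at less than the lowest control value in every palbociclib and combination library. ESPL1 (separase) changed by -1.36 and -1.78 and PTTG1 (securin) by -1.24 and -1.64. PTTG1 has the near-identical copies PTTG2 (0.0 to 2.22 TPM) and PTTG3P (2.10 to 12.1 TPM), so its own level is uncertain to that extent.

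**Figure D4:**
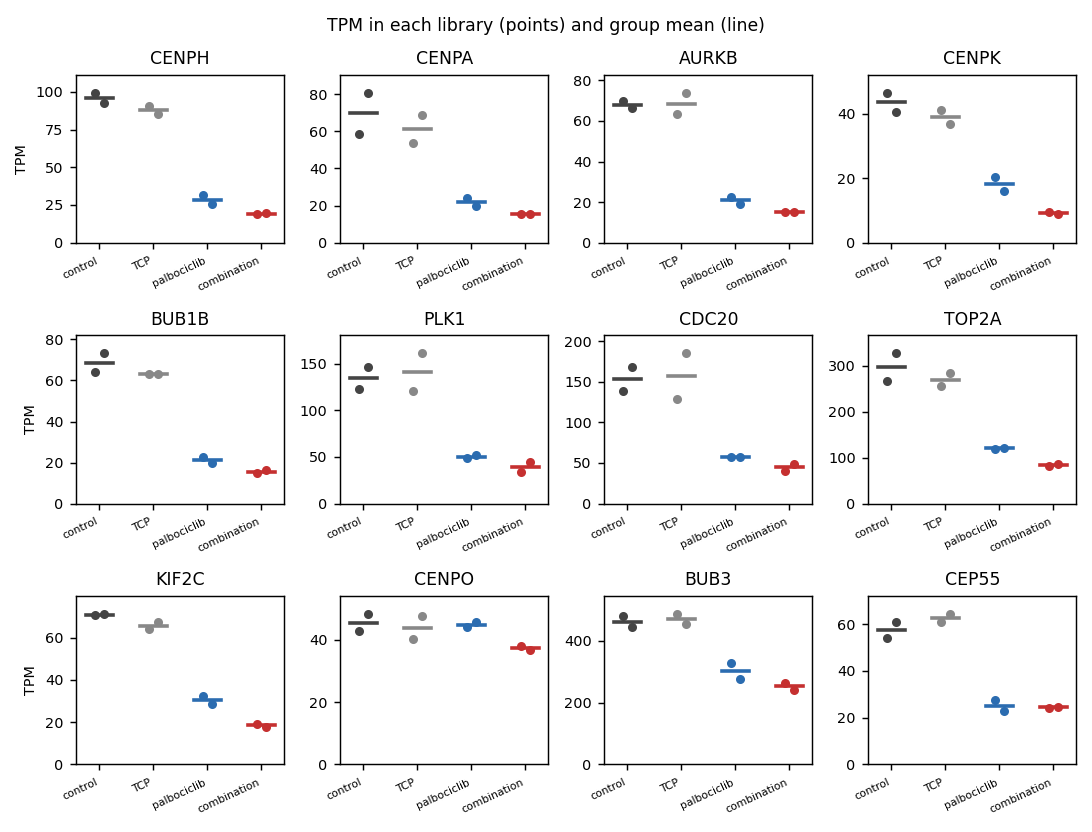
TPM in each library (points, 2 per group) and group mean (line) for 12 of the genes, each on its own axis from 0. In CENPH, CENPA, AURKB, CENPK, BUB1B, PLK1, CDC20, TOP2A and KIF2C the palbociclib libraries lie under control and TCP and the combination libraries lie lower again, whereas CENPO changes little, BUB3 keeps more of its level, and CEP55 is alike with palbociclib and the combination.

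All 10 kinesins, the motors that align chromosomes and build the spindle, were called lower with the combination (median -1.66) and 7 with palbociclib (median -1.19). KIF2C, a kinesin that depolymerises microtubules at the centromere, gave 70.6 and 71.0 TPM in control, 63.9 and 67.4 with TCP, 32.2 and 28.8 with palbociclib and 19.1 and 17.9 with the combination. It had the smallest p of the 59 between combination and palbociclib, with a difference of -0.69 ± 0.09 (SE, adjusted p = 0.012 by limma), and spans chromosome 1 from 45205490 to 45233439 (GRCh37, plus strand). KIF11, the motor that pushes the spindle poles apart, gave 58.2 and 74.1 TPM in control, 59 and 67.0 with TCP, 28.2 and 27.8 with palbociclib and 19.8 and 21.3 with the combination, and changed by -1.63 ± 0.13 (SE) with the combination. The other kinesins changed with the combination by -1.41 (KIF23) to -1.86 (KIF15) and kept 24.5 to 36.1% of their control level. KIF18A, KIF20A and KIF23 were not called with palbociclib, at -0.92, -0.95 and -0.96. KIF4A has a near-identical copy, KIF4B, which was listed at 0.86 to 3.72 TPM.

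All 5 proteins that organise spindle microtubules were called lower with the combination (median -1.73) and 3 with palbociclib (median -1.10). TPX2, which activates AURKA on the spindle, gave 112 and 123 TPM in control, 99.4 and 106 with TCP, 49.1 and 46.6 with palbociclib and 29.9 and 34.0 with the combination. NUSAP1, a microtubule bundling protein, gave 137 and 165 TPM in control, 138 and 151 with TCP, 75.1 and 74.9 with palbociclib and 54.9 and 56.2 with the combination. DLGAP5 (HURP), which stabilises kinetochore fibres, gave 37.7 and 40.8 TPM in control, 35.0 and 36.0 with TCP, 18.7 and 17.0 with palbociclib and 11.0 and 11.3 with the combination. In all of them the 4 libraries with palbociclib lay under the other 4, and for DLGAP5 the combination was lower than palbociclib by -0.63 ± 0.09 (SE, adjusted p = 0.017 by limma). NUSAP1 sat at the fold threshold with palbociclib, just short of the call. ASPM, which acts at spindle poles, changed by -1.49 and -2.02, and HMMR by -0.93 and -1.44.

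The midzone and cytokinesis proteins changed least as a group, with 2 of 4 called lower by palbociclib and 3 by the combination and medians of -0.84 and -1.24. PRC1, which bundles the midzone microtubules, gave 111 and 125 TPM in control, 101 and 116 with TCP, 54.5 and 58.4 with palbociclib and 39.0 and 42.1 with the combination. In the gene annotation, 57.6% of the exonic bases of PRC1 overlap another coding gene on the same strand, and the effect on its values was not tested. ANLN (anillin), which scaffolds the contractile ring, gave 53.5 and 66.3 TPM in control, 49.8 and 55.1 with TCP, 37.0 and 39.2 with palbociclib and 22.9 and 25.5 with the combination. ECT2, which activates RhoA at the division plane, gave 26.7 and 26.6 TPM in control, 24.7 and 25.8 with TCP, 19.0 and 14.7 with palbociclib and 13.1 and 12.8 with the combination. ANLN showed a small change with palbociclib (-0.63) and a further -0.64 ± 0.12 (SE, adjusted p = 0.041 by limma) between palbociclib and the combination. For ECT2 the values were -0.64 and a further -0.35 ± 0.12 (SE), the latter with an adjusted p of 0.21 by limma. CEP55, which recruits the abscission machinery, showed the reverse, with 54.0 and 60.9 TPM in control, 60.9 and 64.2 with TCP, 27.4 and 23.0 with palbociclib and 24.2 and 24.5 with the combination. Its combination libraries fell between its palbociclib libraries, and the difference between the 2 treatments was -0.04 ± 0.11 (SE, adjusted p = 0.88 by limma). Whether these 4 genes differ from the other groups was not tested.

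All 7 chromosome structure genes were called lower by both treatments, with medians of -1.20 and -1.69. TOP2A, the topoisomerase that untangles sister chromatids, gave 266 and 327 TPM in control, 255 and 285 with TCP, 118 and 122 with palbociclib and 82.8 and 87.0 with the combination. SMC4, a core subunit of condensin, gave 240 and 240 TPM in control, 242 and 201 with TCP, 96.4 and 86.7 with palbociclib and 75.0 and 69.9 with the combination. The 5 condensin I subunits NCAPD2, NCAPG, NCAPH, SMC2 and SMC4 kept 38.1 to 49.1% of their control level with palbociclib and 26.3 to 43.2% with the combination, with NCAPD2 the highest and NCAPH the lowest with the combination. MKI67, the proliferation marker Ki-67, changed by -1.17 and -1.69 ± 0.26 (SE), with the widest error of the group. For SMC4 and NCAPG, 19.0% and 33.7% of the exonic bases overlap exons of TRIM59 and LCORL on the opposite strand.

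The change was also set beside the level and the promoter letters. Across the 59 genes the control level and the log2 fold change with the combination had a Pearson r of -0.03 and a Spearman rho of -0.07, a description across genes that share the same libraries. The 39 genes with CHR letters had a median of -1.69 with the combination and -1.17 with palbociclib, and the 11 with an entry and no such letters had -1.68 and -1.20. With and without CCAAT letters the medians with the combination were -1.66 (36 genes) and -1.69 (14 genes), and with and without E2F letters -1.57 (6 genes) and -1.69 (44 genes).

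Other genes of the same machinery were taken from lists of complexes, which were also chosen with earlier results of these data known. Over all genes tested, 7.82% were called lower with the combination and 4.56% with palbociclib. The counts of these lists, and of the cell cycle lists that follow, are to be read beside these shares. Of 22 other kinetochore genes 9 were called lower with the combination and 2 with palbociclib (median -0.89 with the combination), with KNL1 (-1.90), CENPU (-1.5) and HJURP (-1.5), the chaperone of CENPA, lowest, and NSL1 (-0.55), CENPT (-0.26) and CENPB (-0.06), which binds centromeric DNA, nearest to 0. Of 19 other checkpoint and anaphase genes 4 were called lower with the combination, NEK2 (-1.83), TRIP13 (-1.79), MASTL (-1.22) and UBE2S (-1.09), and 3 with palbociclib. The core subunits of the anaphase-promoting complex were not called, with ANAPC2 at 0.05 and MAD1L1, a checkpoint protein, at 0.42 with the combination. Of 12 cohesin genes 5 were called lower with the combination and 3 with palbociclib, with SGO1 (-1.94), CDCA5 (-1.45) and SMC3 (-1.43) lowest and PDS5A (-0.49) and WAPL (-0.19) nearest to 0. Of the 3 condensin II genes 2 were called lower with the combination and 1 with palbociclib, with NCAPG2 at -1.63 and NCAPH2 at -0.33. Of 20 other spindle and cytokinesis genes 8 and 3 were called lower, with KIF18B (-1.89), STMN1 (-1.76) and FAM83D (-1.42) lowest and RHOA (-0.07), MYH9 (0.30) and CHMP4B (0.46) highest with the combination.

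The regulators of these genes and the neighbouring cell cycle lists moved as follows. Of 11 S, G2 and M cyclins, CDKs and CDC25 phosphatases, 9 were called lower with the combination and 8 with palbociclib, with CCNA2 (-2.05) and CDK1 (-1.99) lowest, and CCNE1 (-0.29) and CCNE2 (-0.41) not called. Of 27 DNA replication genes 26 were called lower with the combination (median -1.53) and 17 with palbociclib (median -1.03). Of 21 regulators 7 were called lower with the combination and 3 with palbociclib. With the combination the late cell cycle activators MYBL2 (-1.64), FOXM1 (-1.63) and LIN9 (-1.44) were among the 7, together with E2F8 (-1.73), E2F7 (-1.61), E2F1 (-1.22) and RBL1 (-1.15), while RB1 (-0.07), RBL2 (-0.05), E2F4 (-0.24), LIN37 (0.04) and CDKN1A (-0.28) did not pass the test by limma. Between combination and palbociclib the medians were -0.53 in the cyclin list, -0.49 in the replication list and -0.21 in the regulators. The median of the 59 mitotic genes was -0.47. Interaction medians were -0.45, -0.43 and -0.12 in these lists and -0.35 in the 59 genes. Lists of other genes of the same machinery had medians of -0.32 to -0.13 and of -0.25 to -0.06.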

How the data were processed

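RNA-seq of MV4-11 cells (8 libraries, 4 groups of 2, grouped by the treatment in the labels) was analysed from a table of TPM values that the authors deposited. The authors aligned the reads to the hg19 genome (subread-align), obtained counts for each gene with featureCounts (1.6.4 in the submitters' processing notes) and turned these into TPM. The gene annotation and the strand setting are not given in the sources used here, although the library kit is stranded. The table holds no counts, so the depth of the libraries is unknown and no counting interval is given. Every sample column was used.

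From the TPM, log2(TPM + 1) was fitted with limma 3.58.1 in R 4.3.3 across the 14151 genes that reached 1 TPM in 2 or more libraries, with 1 coefficient per group, moderated variances with a mean-variance trend and 4 residual degrees of freedom. The call, two-sided, needed a log2 fold change of 1 or more in size and an adjusted p (Benjamini-Hochberg over all genes tested) below 0.01. With 2 libraries against 2, an exact permutation test cannot go below a two-sided p of 0.333, so none was used. The authors' DESeq2 results were not used.

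Same-numbered libraries deviated together from their group means (6 correlations of 0.169 to 0.491 over genes), so the numbers may pair the libraries; this comes from the values alone, since the labels say nothing of shared cultures. The main fit has no block, and its p-values, standard errors and counts are unpaired. Values with the replicate number as a block are given for counts that they move, and for single genes only where stated. The alternatives were another pseudocount, other filters and scalings, a replicate block, fitting just the 2 groups of a comparison, no variance trend, another adjusted p and leaving out each library.

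The members, role groups and comparison lists were chosen with earlier results of these data known. Values in every library are given for the 2 genes of each role group with the highest mean TPM, for the 5 with the largest and the 5 with the smallest change with the combination and, since none was called between combination and palbociclib, for the 3 with the smallest p there; CEP55 and UBE2S were added after their values were seen. Of the comparison lists the 3 lowest and 3 highest may be named, and any cyclin, regulator or marker. Promoters are from RefSeq (GRCh38.p14), and overlaps of exons from GENCODE on GRCh37, the build of hg19; 14 of the 59 genes share exonic bases with another coding gene, 4 of them on the same strand (CENPA, BUB1B, NUSAP1 and PRC1), where the authors' counting could split or drop reads.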

Additional observations from a re-analysis of the deposited data

How the results depend on the processing

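No alternative reversed a call or moved a count of called genes by over 1.5 times: with 1 library left out the count was 51 to 54 for the combination, 33 to 49 for palbociclib and 49 to 53 for the combination against TCP, and it was 0 for TCP, for the combination against palbociclib and for the interaction. With the replicate block the counts were 54 for the combination and 42 for palbociclib, as without it, and the block changed no other count of calls; at an adjusted p below 0.05 and any fold it raised the genes lower in the combination than with palbociclib from 17 to 37. The median change with the combination was -1.73 with a pseudocount of 0.1, -1.48 with quantile normalization and -1.46 with median-ratio scaling, and -1.77 to -1.58 with 1 library left out. That of TCP was -0.10 and -0.08 under these scalings and -0.22 to -0.03 with 1 library left out. That of the combination against TCP was -1.39 under both scalings and -1.61 to -1.45 with 1 library left out. Median-ratio scaling moved the median of all genes with the combination from -0.22 to -0.01, and under it and quantile normalization 58 of the 59 genes stayed below 0 with palbociclib, CENPO being the exception, and 58 in the combination against palbociclib. Over single genes and alternatives there were 1003 values per comparison, which include genes that had no call to lose. With the combination 14 values lost their call and 1 gained one, and with palbociclib 49 lost it and 9 gained one.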
